A study of Mus musculus with 10 samples.

Results

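Methylation was examined at 9 genes that form nested pairs: the imprinted genes Mcts2, Nnat, Nap1l5 and Peg13, each lying inside a larger host gene (H13, Blcap, Herc3 and Trappc9), and Inpp5f, a further host that is known to carry an imprinted internal transcript. The members were the assayed CpG cytosines within 3 kb of the 4 inner genes and within the host spans plus 2 kb. They came to 1191 of the 2391795 cytosines of the table. The annotated spans placed all 4 inner genes wholly inside their hosts, but Inpp5f had no separate record for its inner transcript. Peg13 was annotated as a long noncoding RNA gene, so the word retrogene, a gene copied into the genome from a spliced messenger RNA, was not used for it.

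The assay was reduced representation bisulfite sequencing. DNA is cut at CpG-containing sites to favour CpG-dense regions, bisulfite changes cytosines that lack methylation, and reads that kept the cytosine are counted at each CpG. Each library came from a whole mouse embryo taken at embryonic day 7.5, during gastrulation. In the study's experiment 2, 5 embryos were labelled control and 5 arsenic. No dose, route or timing of arsenic, and no strain or sex, could be read from the labels used. The deposited counts carry the tag F2emb, and the labels used did not say whether these embryos were exposed to arsenic themselves. The table numbers its 10 libraries only from 1 to 10, and no library was assigned to an embryo or a group. The comparison of arsenic with control, which the design asks for, was therefore not made, and all values describe the 10 libraries together. Library numbers are those of the table. Whole embryos hold many cell types, so a level is an average over cells and over both parental alleles, which were not told apart.

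At many imprinted genes, DNA methylation from the germ line lies on the allele of a single parent, and the other allele stays unmethylated and active. At maternally methylated imprints the mark is laid down in the oocyte at a CpG-rich promoter, and the paternal copy is transcribed. In the mouse embryo the zinc finger protein ZFP57 helps to keep the mark by binding the methylated motif TGCCGC. Imprinted retrogenes are a textbook case, because a CpG island inside the intron of a host gene carries the mark while the host promoter does not. Transcription of Mcts2 is known to go along with the choice between early and late polyadenylation sites of H13.

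The promoter sequences that bear on the contrast are shown here, from 250 bases before to 50 bases after the annotated start, 5′ to 3′ on the strand of the gene, from RefSeq (build GRCm38.p6, the same coordinates as mm10). Of the 9 genes, 7 were in the RefSeq promoter table, all but Peg13 and Trappc9. The inner genes Mcts2, Nnat and Nap1l5 are followed by Blcap, the host of Nnat, as the host promoter with the most assayed cytosines in this window. Capitals mark TGCCGC or its reverse complement GCGGCA, searched without mismatches.
Mcts2 (chr2:152686898-152687197, plus strand): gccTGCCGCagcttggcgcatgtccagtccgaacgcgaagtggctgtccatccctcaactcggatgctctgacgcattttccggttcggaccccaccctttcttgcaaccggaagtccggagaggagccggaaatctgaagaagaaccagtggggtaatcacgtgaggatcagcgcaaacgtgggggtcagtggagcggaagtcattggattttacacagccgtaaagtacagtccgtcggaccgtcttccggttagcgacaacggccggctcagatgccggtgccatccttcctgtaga
Nnat (chr2:157559828-157560127, plus strand): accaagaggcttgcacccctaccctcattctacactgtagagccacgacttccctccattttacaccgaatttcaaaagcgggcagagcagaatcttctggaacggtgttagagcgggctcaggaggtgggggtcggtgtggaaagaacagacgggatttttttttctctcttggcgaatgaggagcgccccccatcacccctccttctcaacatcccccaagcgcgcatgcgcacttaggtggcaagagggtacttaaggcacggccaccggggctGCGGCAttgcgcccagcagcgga
Nap1l5 (chr6:58907077-58907376, minus strand): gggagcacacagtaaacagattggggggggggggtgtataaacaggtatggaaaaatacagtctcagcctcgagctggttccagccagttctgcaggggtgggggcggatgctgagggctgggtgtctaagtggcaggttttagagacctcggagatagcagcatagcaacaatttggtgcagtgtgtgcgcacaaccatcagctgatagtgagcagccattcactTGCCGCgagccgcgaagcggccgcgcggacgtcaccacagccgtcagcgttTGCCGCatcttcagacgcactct
Blcap (chr2:157566312-157566611, minus strand): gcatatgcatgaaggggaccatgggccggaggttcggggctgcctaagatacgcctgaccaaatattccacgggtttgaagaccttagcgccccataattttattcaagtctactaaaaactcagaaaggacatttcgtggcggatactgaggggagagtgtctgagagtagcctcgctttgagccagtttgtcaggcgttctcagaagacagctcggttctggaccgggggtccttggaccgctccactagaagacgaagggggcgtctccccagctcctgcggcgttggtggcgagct

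The motif was found at 1 site in the Mcts2 promoter, 1 in that of Nnat and 2 in that of Nap1l5, and at none in those of H13, Blcap, Herc3 and Inpp5f. It was also at none in the promoter of Zrsr1, an imprinted retrogene in the host Commd1 that is compared further on. The promoter that the table gives for Herc3 lies 2245 bp inside the annotated span and is not the start window used for that gene. Over all 32817 promoter windows of this length, 11.6% held it, and 22.5% of the 14258 windows with at least 10 CpGs did. The Mcts2 and Nnat promoters held 25 and 17 CpGs, the Nap1l5 and Blcap promoters 17 each, and the H13 promoter 21. The Mcts2 site lay 244 bases before the start. Its CpG was 67.5% methylated on the strand of the gene (58.5% to 80.6% over the libraries) and 61.6% on the other (44.7% to 77.4%). The Nnat site lay 28 bases after the start, and its CpG was at 71.1% (54.5% to 79.3%) and 66.9% (44.7% to 85.3%). The sites of Nap1l5 were not among the assayed cytosines. A match describes the letters only and says nothing of binding.

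The 3 inner genes with an annotated strand were intermediately methylated around their starts, at about 60%, and the starts of their hosts were almost unmethylated. A start level is the mean, over the assayed cytosines within 1000 bp of the start, of methylated reads over coverage, on counts summed over the 10 libraries. Intermediate means 35 to 65%. Mcts2, Nnat and Nap1l5 were all intermediate, against 16.9% of 14149 autosomal gene start windows and 4.25% of the 9373 with at least 20 cytosines. All 3 were above 50%, as were 3.68% of the windows with at least 20 cytosines.

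Mcts2, the intronless copy of the X-linked translation factor gene Mcts1, lies in H13 on chromosome 2 (152687148 to 152687946). Its start window was at 60.8% over 48 cytosines, with 53.7% in the lowest library, a median of 61.0% and 70.1% in the highest. Mean coverage per cytosine was 61.5 to 106 reads over the libraries. H13, which encodes signal peptide peptidase, a protease of the endoplasmic reticulum, was at 1.15% over 12 cytosines at its own start, from 0% to 5.13% with a median of 0.711%. The libraries of the pair did not overlap. Mcts2 exceeded H13 by 59.7 points on the summed counts and by 52.1 to 69.1 points in the 10 libraries.

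Nnat encodes neuronatin, a small membrane protein of brain and endocrine cells, and lies on chromosome 2 (157560078 to 157562525), on the strand opposite to Blcap. Its start window was at 62.7% over 54 cytosines, from 50.7% to 73.3% over the libraries with a median of 62.7%. Blcap, named for its reduced expression in bladder cancer, was at 0.703% over 60 cytosines at its start, from 0.150% to 1.47% with a median of 0.677%. The excess of Nnat over Blcap was 62.0 points, and 50.01 to 71.8 points in the single libraries. In the promoter sequences above, the 29 assayed cytosines of the Blcap window averaged 0.823%, and the 33 of the Mcts2 window 59.2%.

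Nap1l5, a brain-expressed gene of the nucleosome assembly protein family, lies in Herc3 on chromosome 6 (58905233 to 58907126), also on the opposite strand. It was at 64.1% over 34 cytosines, from 55.4% to 74.7% with a median of 64.1%. These cytosines were 248 to 492 bp inside the gene, and the promoter itself was not covered. Herc3, which encodes a ubiquitin ligase of the HERC family, was at 1.24% over 72 cytosines, from 0.332% to 3.65% with a median of 1.04%. Nap1l5 exceeded Herc3 by 62.8 points, and by 54.4 to 74.3 points in the single libraries.

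Peg13, a paternally expressed noncoding RNA gene, lies in Trappc9 on chromosome 15 (72805602 to 72810324), and neither gene had a strand in the annotation used here, so both ends were taken. The upper end of Peg13 was at 68.9% over 52 cytosines, from 61.7% to 77.2% with a median of 69.0%. The lower end was at 37.5% over 10 cytosines, from 21.1% to 49.4% with a median of 40.01%. The upper end of Trappc9, which encodes a subunit of the TRAPP vesicle tethering complex, was at 1.71% over 12 cytosines, from 0.335% to 5.19% with a median of 0.977%. The other end of Trappc9 had no assayed cytosine within 1000 bp. Both Peg13 ends were above the Trappc9 end in 10 of 10 libraries, by 59.8 to 76.3 points and by 19.97 to 48.4 points.

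Inpp5f encodes an inositol phosphatase and lies on chromosome 7 (128611181 to 128696436). Its start window was at 9.93% over 54 cytosines, from 8.44% to 11.1% with a median of 9.96%. The 46 cytosines between 210 and 890 bp inside the gene were at 2.47%, and the other 8, before the start, at 52.8%. These 8 ran from 5.52% to 86.3%, with 74.6% at 910 bp before the start of Inpp5f and 5.52% at 207 bp before it. Far inside the gene, 76.9 kb from the start (128688048 to 128688347), 26 cytosines were at 48.3%, from 40.9% to 55.7% with a median of 48.1%. This stretch was above the start window in 10 of 10 libraries, by 30.6 to 45.97 points. It was singled out after the levels were seen, and whether it is the start of the inner transcript was not tested.

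**Figure D1:**
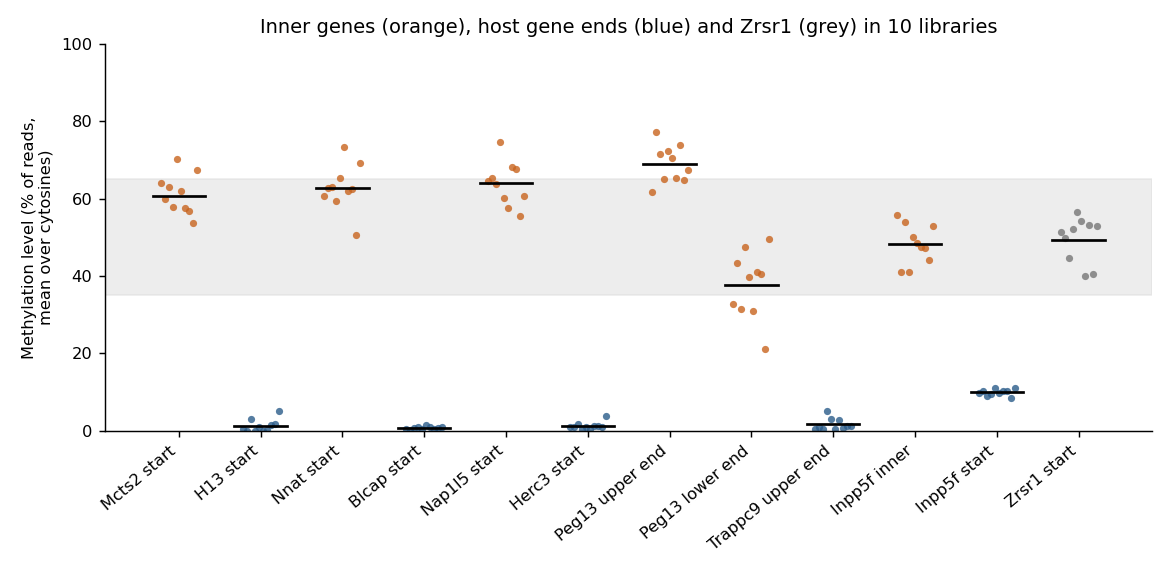
Methylation level in percent of reads (vertical axis) of inner genes (orange), host gene starts or, for Trappc9, the upper end (blue) and Zrsr1 (grey), with 1 point for each of the 10 libraries, a black line for the counts summed over libraries and a grey band from 35 to 65%. The Mcts2, Nnat and Nap1l5 points lie between 50.7% and 74.7%, and those of H13, Blcap, Herc3 and Trappc9 at 5.19% or less.

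All 5 host windows, for Trappc9 that at its upper end, were under 20%, as were 72.7% of all autosomal start windows and 91.0% of those with at least 20 cytosines. Low host starts were therefore the common state and were not particular to these genes. The intervals that counting alone allows depend on how many molecules stand behind the reads. With each count as an independent molecule, the Wilson 95% interval of methylated reads was 59.6% to 60.6% for Mcts2 (41647 reads). With halved mean coverage as the number of fragments, as if both mates of a pair were counted and all cytosines lay on the same fragment, it was 56.1% to 65.3%. The same fragment-based interval was 57.6% to 67.6% for Nnat, 58.4% to 69.4% for Nap1l5 and 42.0% to 54.7% for the inner stretch of Inpp5f. The first 3 lay wholly above 50%, and that of Inpp5f held it. These intervals cover counting error only.

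The list of other genes with a maternally methylated imprint gave a comparison. Of 15 genes, 11 had a strand and a measured start window, Zrsr1 among them, and 10 of the 11 were intermediate. The windows lie at the outer starts of the annotated spans, Gnas included, and whether each holds the maternal mark of its gene was not tested. The list ran from Grb10 at 3.76% (2.63% to 4.71% over the libraries), a gene with several promoters, to Airn, the noncoding RNA gene of the Igf2r locus, at 53.3% (46.2% to 59.4%). Peg3 and Usp29 shared a window. Over the 10 distinct windows the median was 46.96%. The summed levels of Mcts2, Nnat, Nap1l5 and the upper end of Peg13 were each above all 10, while that of the lower end of Peg13 was above 1 of the 10. In single libraries Mcts2 exceeded the list median by 6.55 to 26.3 points, Nnat by 7.45 to 28.8 points and Nap1l5 by 5.22 to 26.6 points. Mcts2 was above every window of the list in 9 of 10 libraries, Nnat in 8 and Nap1l5 in 9. The upper end of Peg13 was above every window in 10 of 10 libraries, and above the list median by 14.1 to 28.6 points. Its lower end was below the list median in 10 of 10, with differences from -22.2 to -2.55 points. The list median itself ran from 37.9% to 55.1% over the libraries. The windows were not matched on depth or on the number of cytosines, and the part of either in the difference was not tested.

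Zrsr1, a retrogene related to the splicing factor gene U2af1, lies inside Commd1 on chromosome 11 (22972005 to 22976496) and has the same arrangement. Its start window was at 49.4% over 95 cytosines, from 40.1% to 56.6% with a median of 51.8%, and its fragment-based interval was 43.7% to 55.05%. The lowest libraries of Mcts2 (53.7%), Nnat (50.7%) and Nap1l5 (55.4%) each lay within the range of Zrsr1. Commd1, a copper homeostasis gene, had no assayed cytosine within 1000 bp of the outer start of its span, the start used for the other hosts. At the start that the promoter table places outside Zrsr1, it was at 2.04% over 48 cytosines. At the start placed inside the Zrsr1 span, it was at 48.0% over 124 cytosines. Of the genes related to the inner genes and to Inpp5f by family, 3 of 6 had a measured start. Nap1l1, a nucleosome assembly protein gene, was at 1.02% (0.652% to 1.46%). Sacm1l and Inpp5e, which encode phosphoinositide phosphatases, were at 0.849% and 0.685%. Mcts1, the source of Mcts2, had no assayed cytosine at its start.

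Levels changed along the inner genes over short distances. In Mcts2, all 48 cytosines lay in a stretch of 296 bp that ended at the start. The 30 cytosines from 294 to 168 bp before the start were at 63.5%, and the 18 from 122 bp before it were at 56.3%. The single cytosines ran from 52.2% to 67.98%. The nearest cytosine to the start was at 61.5%. The part nearer to the start was more deeply read, with 73.3 to 119 reads per cytosine against 54.3 to 103. The library values were 54.8% to 75.2% and 47.8% to 62.2%, and the part farther from the start was the higher in 9 of 10 libraries, with differences from -7.41 to 16.2 points.

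Nnat showed a decline from upstream into the gene. The 33 cytosines between 2430 and 1774 bp before the start were at 82.1% (78.8% to 84.0%). From 20 to 197 bp after the start, 28 cytosines were at 67.3% (56.9% to 76.6%), and from 253 to 400 bp, 26 were at 57.8% (44.0% to 69.8%). The 14 cytosines from 1366 to 1634 bp after the start were at 47.4% (38.1% to 56.2%). Within libraries, each part of Nnat was compared with the next. The upstream part exceeded the first part after the start by 5.88 to 25.2 points in 10 of 10 libraries. The first part exceeded the second by 2.98 to 15.2 points in 10 of 10, and the second exceeded the last in 9 of 10, with differences from -3.78 to 23.9 points. Mean coverage in these 4 parts was 52.8, 56.5, 89.0 and 34.7 reads per cytosine. In Nap1l5 the 29 cytosines nearer to the start were at 65.2% and the 5 further inside at 57.2%, and 4 cytosines beyond the far end of the gene were at 70.7%.

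Peg13 had a step. Just inside its upper end, the 23 cytosines from 238 to 444 bp were at 88.6% (71.7% to 95.3%), and the 9 from 502 to 540 bp were at 54.1% (38.1% to 63.5%). Outside the gene, 20 cytosines from 216 to 673 bp beyond the upper end were at 52.99% (44.4% to 69.5%). Within libraries the high part exceeded the low inner part by 16.4 to 50.6 points and the outer part by 18.5 to 45.4 points, in 10 of 10 libraries each. At the CpG at position 72809880, on the near side of the step, the plus strand was at 90.0% with 18 reads per library on average, while the minus strand was at 54.4% with 24.1 reads. On average over the libraries the high part had 24.1 reads per cytosine, the low inner part 31.1 and the outer part 46.2. The role of read coverage in the step was not tested.

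**Figure D2:**
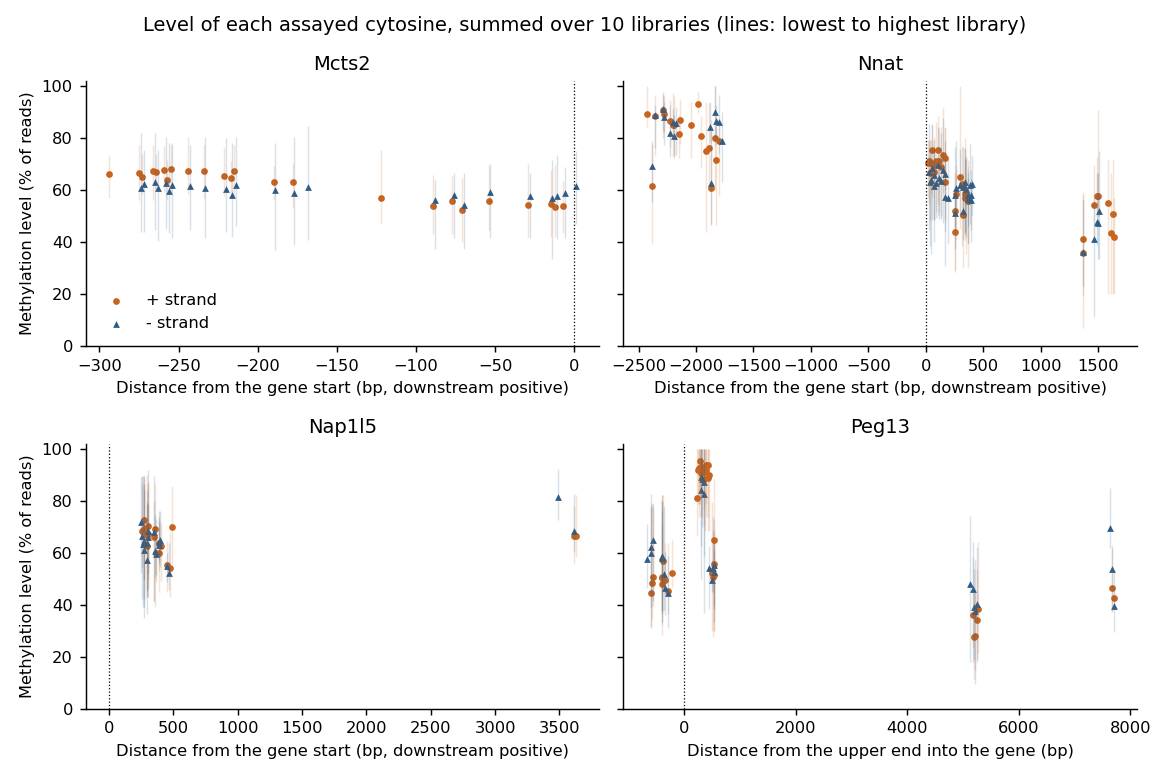
Level of each assayed cytosine in percent of reads on counts summed over 10 libraries (vertical axis) against distance from the gene start in bp, for Mcts2, Nnat, Nap1l5 and, from its upper end, Peg13. Circles are plus strand and triangles minus strand cytosines, and thin lines span the lowest to the highest library. Nnat falls from 82.1% upstream to 47.4% inside the gene, and Peg13 stands at 88.6% beside parts of 54.1% and 52.99%.

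The hosts were mostly methylated away from their starts. Outside the start windows and outside the inner genes with 3 kb on each side, the body of Herc3 was at 73.8% (68.4% to 78.4%), that of Trappc9 at 64.4% (62.2% to 65.8%), that of Inpp5f at 62.1% (58.9% to 66.0%) and that of H13 at 38.3% (35.5% to 41.3%). Nothing was left out for the inner transcript of Inpp5f, so the body of Inpp5f included the inner stretch of 26 cytosines at 48.3%. Its value is therefore not like those of the other hosts. For Blcap only 8 cytosines, beyond its far end, were left, at 56.96%. The low value of H13 came with an unmethylated region near its downstream end. There, 19 cytosines (152706222 to 152706804) were at 77.9% (74.2% to 82.4%). The level then fell over 10 cytosines at 33.1%, and the last 43 cytosines, up to 561 bp before the annotated end, were at 4.07% (2.43% to 6.36%). Trappc9 had a smaller dip 16.5 kb inside its upper end (73044323 to 73045239), where 23 cytosines averaged 30.99% (26.2% to 34.1%) and ran from 87.7% to 0.784%.

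Assayed cytosines no more than 300 bp apart were joined into stretches. The 5 hosts held 62 stretches of at least 5 cytosines, of which 27 were intermediate, 27 above 65%, 2 between 20 and 35% and 6 under 20%. Intermediate stretches made up 49.4% of the 133515 such autosomal stretches, so the share in the hosts (43.5%) was near the background. H13 had 3 of 6 intermediate, Blcap 3 of 5, Herc3 2 of 6, Inpp5f 2 of 5 and Trappc9 17 of 40. The smaller ones included 10 cytosines of H13 at 49.05%, 1.99 kb from its start, and 8 at 54.1%, 26.9 kb from it. Dense stretches, of at least 20 cytosines, were intermediate in 23.7% of 27731 cases over the autosomes, and in the hosts in 7 of 17. Under 20% were 47.4% of the dense stretches of the autosomes and 3 of the 17. Of these 7, those at Mcts2, Nnat, Nap1l5 and beside the upper end of Peg13 lay within 3 kb of an inner gene, 1 was the inner stretch of Inpp5f, and 2 lay elsewhere in Trappc9.

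**Figure D3:**
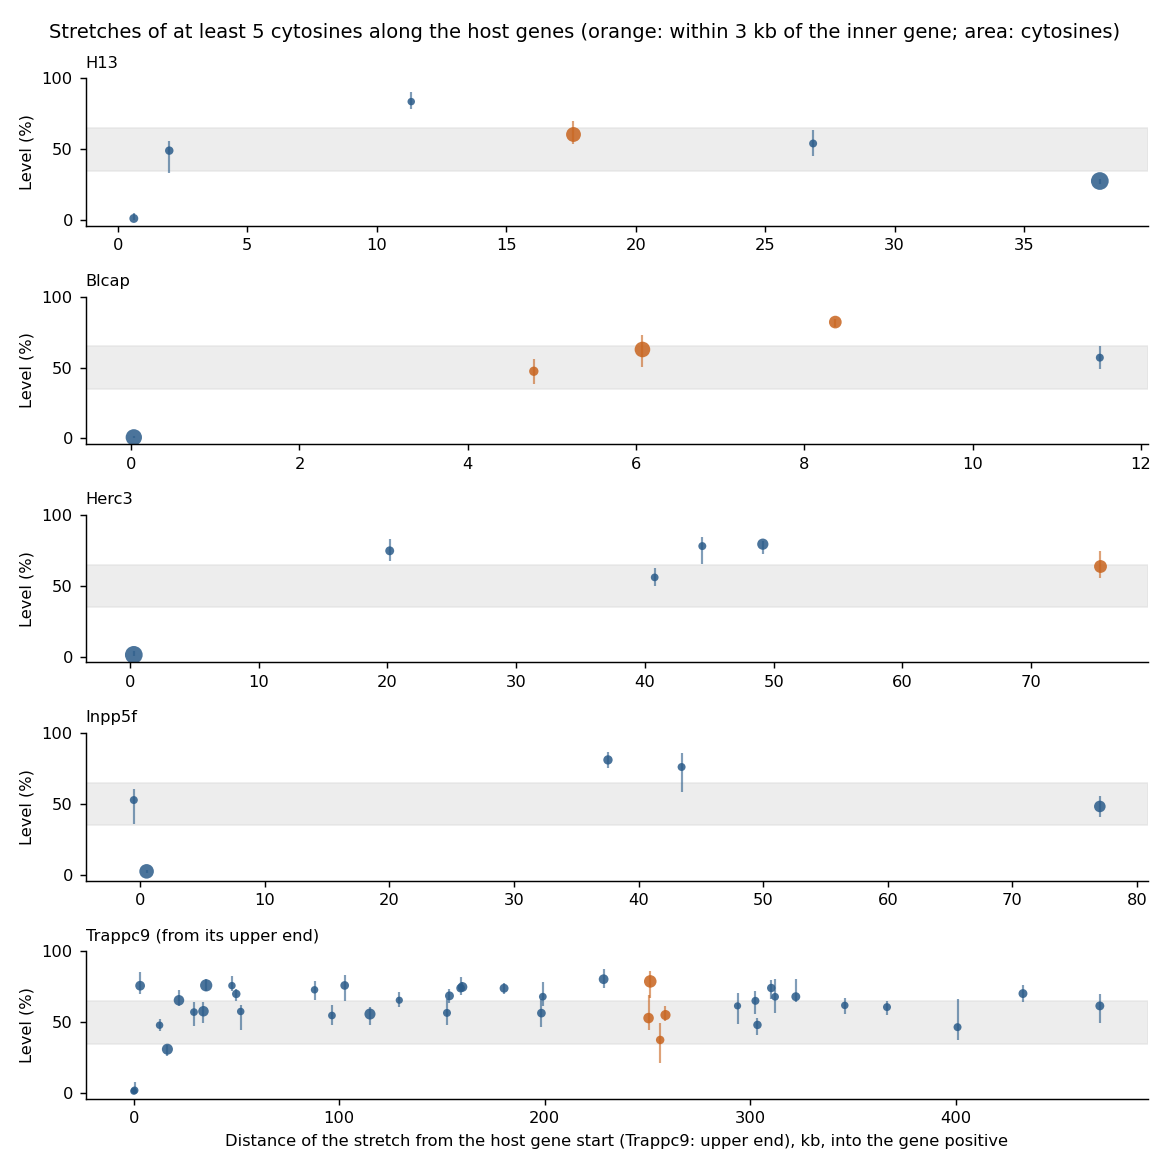
Level in percent (vertical axis) of each stretch of at least 5 cytosines against its distance in kb from the host gene start, for the 5 hosts (for Trappc9 from its upper end). Points are counts summed over 10 libraries with area by number of cytosines, lines span the libraries, orange marks stretches within 3 kb of the inner gene, and the grey band covers 35 to 65%. Each host has a stretch under 20% at its start or, for Trappc9, at its upper end, and intermediate levels recur along Trappc9.

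The dense intermediate stretches differed in how alike their cytosines were. The SD over the 48 cytosines of the Mcts2 stretch was 4.51 points. It was 5.22 points for Nap1l5, 5.30 points for the inner stretch of Inpp5f, 6.17 points beside Peg13 and 6.74 points for Nnat. The 6564 dense intermediate stretches of the autosomes had a median SD of 11.7 points, with quartiles of 9.67 and 14.2. Of these, 0.381% had an SD as small as that of Mcts2, 0.929% as that of Nap1l5, 1.01% as that of Inpp5f, 2.44% as that beside Peg13 and 3.87% as that of Nnat. An SD of at most 5 points was met by 0.762% of them and, of the 7 in the hosts, by Mcts2 alone. An SD of at most 10 points was met by 28.8% of them and by 5 of the 7. The other 2 dense intermediate stretches of Trappc9 were mixtures of high and low cytosines. The 23 cytosines at 72946108 to 72946488 averaged 55.8% with an SD of 19.6 points and ran from 20.3% to 83.4%. The 20 at 73026778 to 73027714 averaged 57.8% with an SD of 21.6 points and ran from 10.4% to 92.8%. The Zrsr1 stretches, of 108 and 38 cytosines, had SDs of 5.92 and 6.97 points. A thinly read stretch has a larger SD by counting alone. Mean coverage was 61.5 to 106 reads at Mcts2 and 34.3 to 59.2 at Inpp5f over the libraries, against a median of 43.9 over the background stretches, which were not matched on it. Cytosines of a fragment also share reads. The stretches at Mcts2, Nap1l5, Inpp5f, Peg13 and Nnat were 296, 245, 300, 458 and 381 bp long. The background was not matched on length either, and the part of length in the SD was not tested.

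**Figure D4:**
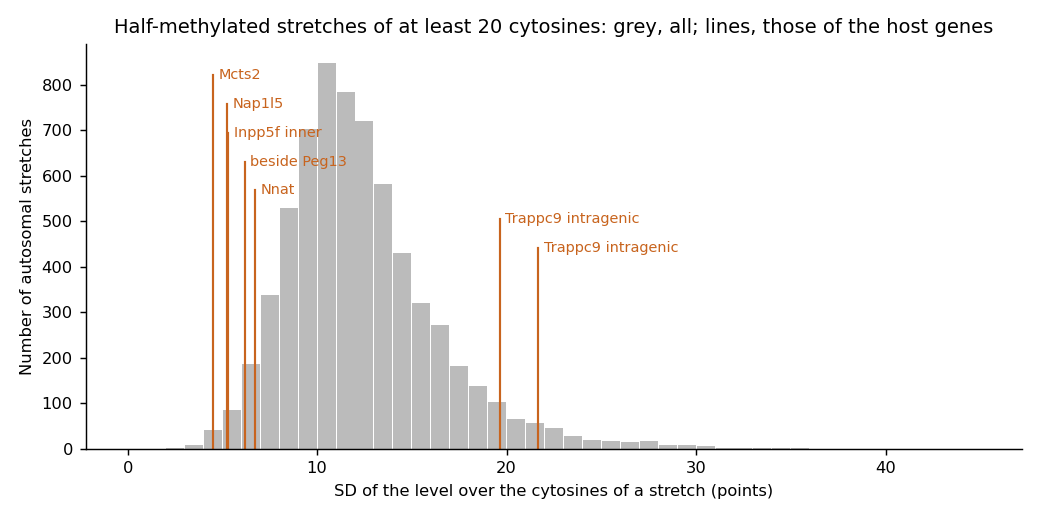
Number of autosomal stretches (vertical axis) by the SD of the level over their cytosines in points (horizontal axis), for the 6564 intermediate stretches of at least 20 cytosines, with a line for each such stretch of the hosts. Mcts2, Nap1l5, Inpp5f, Nnat and the stretch beside Peg13 lie between 4.51 and 6.74 points, left of the median of 11.7, and the other Trappc9 stretches at 19.6 and 21.6.

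The library values of the dense intermediate stretches spanned 16.4 points at Mcts2, 22.6 at Nnat, 19.2 at Nap1l5 and 25.2 beside Peg13, against a median of 12.04 points over the dense intermediate autosomal stretches. Of those, 17.9% spanned as much as Mcts2, 3.35% as Nnat, 8.47% as Nap1l5 and 1.68% as the stretch beside Peg13. This background was not matched on coverage or length, and the part of either in the span was not tested. The inner stretch of Inpp5f spanned 14.8 points, as much as 27.5% of the background did, and the Zrsr1 stretches 14.9 and 14.1 points, as much as 27.0% and 32.1%. Per cytosine, a chi-square test of equal methylation over the 10 libraries was run for the 1755343 autosomal cytosines of 5 to 95%, with Benjamini-Hochberg adjustment over all of them. With the statistic halved, as if both mates were counted, it called 0.0867% of all cytosines at an adjusted p under 0.05 and none of the 963 member cytosines tested, where the smallest adjusted p was 0.0858. At an unadjusted p under 0.05 it called 86 of the 963 (8.93%, against 6.50% of all). Without halving it called 277 (28.8%), against 25.4% of all cytosines. Among them were 23 of 48 at Mcts2, 18 of 38 at Nap1l5, 28 of 66 at Peg13 and 38 of 101 at Nnat, where neighbouring cytosines share reads. By host span, which includes the inner gene, they were 42 of 131 in H13, 41 of 111 in Blcap and 31 of 100 in Herc3. Trappc9 had 145 of 553 and Inpp5f 18 of 68. The test compares libraries and not the study's groups.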

How the data were processed

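DNA methylation was read from the deposited table of counts per CpG cytosine, which per the file headers gives coverage, methylated and unmethylated reads for 10 libraries under methylKit's column names. Per the submitters' processing notes, Trim Galore, Bismark, methylKit and mm10 were used; versions, deduplication and the counting of overlapping mates were not found in the sources used. The lowest coverage in any library was 10 reads per cytosine. Total coverage was 94583116 to 127102232 reads per library, and medians per cytosine were 30 to 42. No 2 libraries held identical counts. All 30 per-sample columns matched no sample or group, so the planned tests of arsenic against control were not run. Gene spans came from RefSeq (GRCm38.p6), strands from its promoter table, and the start is the outer end of the span on that strand. For 7 of 9 genes this was possible; for Peg13 and Trappc9 both ends were used. Starts needed at least 3 cytosines. All 72 assayed cytosines checked in the members' promoter sequences fell on CG. Members and lists were chosen with earlier results of these data known. The text names all 9 members, Zrsr1, Commd1, the related genes, the ends of the imprinted list, and cytosines and stretches by position or level; the dense limit of 20 cytosines, the SD over cytosines, the parts of stretches with their differences within libraries, and the comparison of the inner stretch of Inpp5f were added after the data were seen. Python 3.11.15, scipy 1.17.1 and statsmodels 0.14.6 were used, and the chi-square test was checked on simulated counts. The alternatives were a window of 500 bp, a coverage minimum of 20, levels weighted by reads, single strands, other stretch limits and each library left out.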

Additional observations from a re-analysis of the deposited data

Results flagged for a closer look

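At the start of Herc3, library 10 was at 3.65%, while the next highest library was at 1.77%, so that it stood apart from the other 9. Library 10 was also highest at the start of H13 (5.13%, with library 3 next at 2.98%). At Blcap, the upper end of Trappc9 and Inpp5f, libraries 6, 4 and 5 were highest. It was the only such value among 12 windows tested for a library far from the others, and chance alone gives about 1 in 20 windows. The excess is small beside the 62.8 points between Nap1l5 and Herc3.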

How the results depend on the processing

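The start levels of Mcts2, Nnat, Nap1l5, H13, Blcap, Herc3 and Trappc9, and the differences of the first 3 from their hosts, moved by less than the SD of the libraries under every alternative run. The intermediate class, with its upper limit of 65%, was less stable than that. Nnat was above the limit, at 66.9%, over its whole span plus 3 kb. Nap1l5 was just above it on the plus strand alone (65.15%) and with library 9 left out (65.09%). Mcts2 stayed intermediate under every alternative run. Some alternatives kept the same cytosines and so could not move a level. For Mcts2 these were the 500 bp window, the coverage minimum of 20 and the whole span. For Nap1l5 they were the 500 bp window and the coverage minimum, and for Nnat and Blcap the 500 bp window. Values at the upper end of Peg13 moved. They were 75.2% within 500 bp, 61.99% at a coverage of at least 20 in every library, 63.2% as the sum of methylated reads over the sum of coverage, 63.1% on the minus strand alone, and 62.9% over the whole span plus 3 kb, which also replaces 37.5% at the lower end. Its difference from Trappc9 was 74.4 points within 500 bp and 60.6 points at a coverage of at least 20. The start of Inpp5f was at 5.94% within 500 bp, 3.26% at a coverage of at least 20, 5.80% weighted by reads, 14.9% on the plus and 2.63% on the minus strand, and 8.71% at the start of the promoter table, an alternative added after the data were seen. Its 8 cytosines before the start were all on the plus strand. The intermediate stretches of the hosts numbered 14 of 38 with at least 10 cytosines against 27 of 62, since fewer stretches qualify. The chi-square test called 277 member cytosines without halving and 0 with it. Leaving out each library in turn moved none of the 15 start levels and differences by as much as the SD. That limit could hardly have been reached, because each library carries only a small part of the summed counts. No conclusion on stability is drawn from it. With each library left out in turn, Mcts2 ran from 59.9% to 61.7%, Nnat from 61.6% to 64.3%, and Nap1l5 from 62.9% to 65.1%. At the start that the promoter table gives for Herc3, 2245 bp inside the gene, only 2 cytosines were assayed, too few for a level. No paired analysis was possible because the columns carry no sample or group, so no library has a replicate number. Depth limits the single libraries where mean coverage fell under 20 reads per cytosine, as it did in the shallowest library at the start of H13, before the start of Inpp5f and in parts of Peg13 and Nnat.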

Other observations

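Library 9 had the lowest value at Mcts2 (53.7%), Nnat (50.7%), Nap1l5 (55.4%), the lower end of Peg13 (21.1%) and the stretch beside its upper end (44.4%), but not over the whole window at the upper end of Peg13, at Zrsr1 or at the inner stretch of Inpp5f, where libraries 1, 7 and 2 were lowest. At Zrsr1 it was close, with library 9 at 40.6% and library 7 at 40.1%. Library 9 was also lowest over the body of Herc3 (68.4%) and at the start of Inpp5f (8.44%), but not at the other host starts or bodies. Over the 6564 dense intermediate autosomal stretches, library 9 was lowest in 19.8% and library 1 in 21.7%, against 3.21% for library 2. Its mean autosomal level of 40.4% was the second lowest of the 10, above library 1 at 40.3%. The study's group of library 9 is not known here.

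The strands of a CpG mostly had similar levels. At 379 member CpGs read on both strands, the median difference was 2.94 points, and 8 CpGs differed by more than 20 points, 5 of them in Trappc9, 2 in Herc3 and 1 in H13; 1 of the 5 is the Peg13 CpG described above. In Herc3, the CpG at position 58872065 was at 72.2% (plus) and 4.88% (minus), with 37.0 and 69.7 reads per library. In Trappc9, the CpG at 72757860 was at 2.07% on the plus and 68.3% on the minus strand. These values came from the sites of largest difference and were chosen after they were seen.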
